A study of Homo sapiens with 16 samples.

Results

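Open chromatin was mapped by NicE-seq in U87, an established line of human glioblastoma cells. The regions described here were called open in vehicle-treated cells and in no treated group. Peaks on chromosomes 1 to 22 and X of the 4 deposited peak lists were merged at any overlap of 1 bp or more, and a region was kept when it held a peak of the vehicle list and of no other list. This gave 8701 vehicle-only regions out of 183659 regions, or 4.74% of all regions (Wilson 95% interval 4.64 to 4.84). Belinostat-only, AsiDNA-only and combination-only regions, used for comparison, were 6.72%, 6.78% and 4.39% of all regions. The regions were therefore chosen by the presence and absence of called peaks, and that choice is a description, not a test. Each vehicle-only region held exactly 1 vehicle peak, and together they made up 6.68% of the 130318 vehicle peaks. The belinostat, AsiDNA and combination lists were longer, at 138937, 138273 and 134865 peaks, and the order of the set sizes depended on list length. With lists of equal length there were 10289 vehicle-only, 9403 AsiDNA-only, 8898 belinostat-only and 7166 combination-only regions, so the vehicle-only set was then the largest.

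The 16 libraries fell into 4 groups of 4, and each group was represented by 1 list. The vehicle group received DMSO, and the belinostat group received belinostat, a hydroxamate inhibitor of histone deacetylases, at 1 µM for 24 h. The AsiDNA group was given AsiDNA, a short double-stranded DNA that mimics a DNA break, with DMSO, and the combination group was given AsiDNA with the same belinostat treatment. The labels give no AsiDNA dose or duration, and their protocols name MTU87 and LTAU87 cells where the sample fields name U87, so it is not settled here whether the AsiDNA groups were the same cells as the vehicle group. Per the labels, cells were crosslinked with formaldehyde, and every sample carries the cell line name U87. With 1 list per group there was no spread between replicates and no p-value. Wilson intervals in the text cover counting error only.

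In NicE-seq a nicking enzyme cuts exposed DNA and a polymerase fills the nicks with biotinylated nucleotides, so that accessible DNA can be captured and sequenced. The enzyme, Nt.CviPII, recognises the short sequences CCA, CCG and CCT. Accessible DNA in a cell line lies at promoters, which are mostly shared between conditions, and at enhancers inside genes or between them, which vary more with cell state. Histone deacetylase inhibitors raise histone acetylation, a mark of open chromatin. A list of peaks records where the signal passed the caller's threshold, so a region absent from a list was not called there and may still be accessible below that threshold.

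A small number of vehicle-only regions lay on annotated promoters, and their sequences are shown because they are the members that can be read against a named transcript. RefSeq promoter windows (GRCh38.p14, 250 bases before to 50 after a start) numbered 34961, of which 116 were overlapped by a vehicle-only region. These belonged to 104 genes, 62 protein-coding and 42 long non-coding. The 250 bases before the start are printed on the gene's strand for 4 of the strongest, with the bases inside the vehicle-only region in capitals.
FAM149A: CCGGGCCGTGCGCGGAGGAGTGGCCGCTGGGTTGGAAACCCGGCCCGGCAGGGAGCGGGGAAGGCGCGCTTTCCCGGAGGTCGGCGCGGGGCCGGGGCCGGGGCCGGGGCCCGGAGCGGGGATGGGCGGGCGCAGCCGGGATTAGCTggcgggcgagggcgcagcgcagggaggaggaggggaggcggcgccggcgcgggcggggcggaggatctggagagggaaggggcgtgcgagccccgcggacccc
KCNH4: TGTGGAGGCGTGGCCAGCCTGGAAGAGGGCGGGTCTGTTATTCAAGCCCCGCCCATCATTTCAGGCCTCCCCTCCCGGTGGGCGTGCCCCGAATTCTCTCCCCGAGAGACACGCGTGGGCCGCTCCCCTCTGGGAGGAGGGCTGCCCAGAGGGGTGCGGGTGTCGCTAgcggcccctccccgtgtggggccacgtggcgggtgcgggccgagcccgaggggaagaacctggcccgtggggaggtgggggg
LRRC74A: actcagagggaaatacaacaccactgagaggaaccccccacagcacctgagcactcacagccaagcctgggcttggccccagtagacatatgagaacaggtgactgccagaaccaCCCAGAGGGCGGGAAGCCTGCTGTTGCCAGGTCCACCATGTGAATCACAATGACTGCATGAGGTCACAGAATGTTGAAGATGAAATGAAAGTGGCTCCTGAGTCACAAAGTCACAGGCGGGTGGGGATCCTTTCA
LOC124903354: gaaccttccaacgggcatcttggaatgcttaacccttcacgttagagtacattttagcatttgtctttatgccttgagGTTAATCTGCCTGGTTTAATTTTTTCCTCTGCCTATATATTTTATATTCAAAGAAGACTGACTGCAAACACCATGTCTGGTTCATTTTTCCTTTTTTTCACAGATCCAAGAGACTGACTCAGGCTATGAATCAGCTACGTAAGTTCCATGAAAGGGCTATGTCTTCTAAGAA

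The FAM149A window (chr4:186144637-186144886, plus strand) held a region with a fold enrichment of 4.49 over local background, the value the authors' peak caller gave it, and 81.6% of the 250 bases were G or C. KCNH4 encodes a voltage-gated potassium channel. Its window (chr17:42181143-42181392, minus strand) held a region of fold 4.33 and was 72.4% G or C. LRRC74A (chr14:76826158-76826407, plus strand) held a region of fold 4.15. Its window was 54.0% G or C and contained the AP-1 motif. The long non-coding gene LOC124903354 (chr14:79597731-79597980, minus strand) held the strongest of the 4 regions, at fold 5.42, in the window with the lowest G or C content of the 4, 38.4%. The LOC124903354 window also contained the AP-1 motif. The nearest peak of a treated list lay 270 bp from the FAM149A region, 1556 bp from the KCNH4 region, 1625 bp from the LRRC74A region and 426 bp from the LOC124903354 region.

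Other protein-coding promoters overlapped by vehicle-only regions included HS3ST5 (fold 4.26), a heparan sulfate sulfotransferase, GABRB2 (3.78), a GABA-A receptor subunit, TEK (3.78), the angiopoietin receptor, and CHI3L1 (3.55), a secreted glycoprotein known as a marker of astrocytes and glioma. CHI3L1 was the only 1 of 11 glial and glioma markers checked whose gene end was open in the vehicle list and in none of the other lists. Over all 19821 protein-coding genes, 319 (1.61%) had a vehicle-only region at an end, 118 of them with no other region there. Of the other glial and glioma markers, 7 were open at a gene end in all 4 lists (S100B, OLIG2, SOX2, NES, VIM, CD44 and EGFR). The remaining 3 were open at an end in none (GFAP, PDGFRA and AQP4). Of 5 microglial and blood markers, 2 were open at an end in all 4 lists, CD3E and CX3CR1, and so was SYN1 of 3 neuronal markers. CDH5 of 3 endothelial markers and KRT5 of 3 epithelial markers were open at an end in 2 lists each. This check thus does not separate the lineages cleanly. CDKN2A and CDKN2B, which U87 cells are known to lack, held no region.

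The promoter windows under vehicle-only regions had a median G or C content of 57.7%, against 58.7% over all windows, 65.3% over the 15965 windows overlapped by regions of all 4 lists, 54.0% over the 472 windows overlapped by regions of 1 other list only, and 50.3% over the 17346 windows with no region. The median number of CCA, CCG and CCT sites on both strands was 40 under vehicle-only regions, 39 over all windows and 45 under regions of all 4 lists. The GC box (GGGCGG) was present in 40.5% of the vehicle-only windows (32.0 to 49.6), in 45.0% of all windows and in 68.2% of those of all 4 lists. The AP-1 motif (TGAGTCA or TGACTCA) was present in 10 of 116, or 8.62% (4.75 to 15.1), in 4.92% of all windows and in 8.69% of windows of 1 other list only. CCAAT was present in 25.9% (18.8 to 34.5), in 34.6% of all windows and in 30.5% of windows of 1 other list only. GGAATG (TEAD) was present in 16.4% against 14.0% of all windows, and the E-box CANNTG in 70.7% against 68.7%. TGACGTCA (CRE) was found in 1 of the 116 windows. Both strands were searched. The E-box also matches within longer motifs, and a match is not a binding site. For each of these motifs except CCAAT, the interval of the vehicle-only windows included the share over all windows. For CCAAT that share lay just above the interval, and the share of windows of 1 other list only lay within it.

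Vehicle-only regions also covered 4 of 1558 annotated microRNA hairpins in whole or in part. Belinostat-only regions covered 4, AsiDNA-only regions 5, combination-only regions 2 and regions of all 4 lists 142. The mature sequences of the hairpins under vehicle-only regions are given with the seed, bases 2 to 8, in capitals. No seed was shared.
hsa-miR-9-5p: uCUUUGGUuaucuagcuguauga
hsa-miR-9-3p: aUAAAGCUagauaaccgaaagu
hsa-miR-197-5p: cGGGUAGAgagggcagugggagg
hsa-miR-197-3p: uUCACCACcuucuccacccagc
hsa-miR-4443: uUGGAGGCguggguuuu
hsa-miR-6801-5p: uGGUCAGAggcagcaggaaauga
hsa-miR-6801-3p: aCCCCUGCcacucacuggcc

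MIR9-2 (chr5:88666853-88666939, minus strand) encodes miR-9, a microRNA abundant in neural tissue, and all 87 bp of its hairpin lay in a vehicle-only region of fold 3.37 whose nearest treated-list peak was 517 bp away. MIR197 (chr1:109598893-109598967) lies in GNAI3, a G protein subunit gene, and was covered by a region of fold 3.07. MIR6801 (chr19:52222020-52222098) lies in PPP2R1A, a scaffold subunit of protein phosphatase 2A, and was covered by a region of fold 4.26. For MIR4443 (chr3:48196564-48196616), 16 of 53 bp were covered, by a region of fold 2.48.

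The vehicle-only regions were among the weakest peaks of the vehicle list. Their median fold enrichment was 3.36, the 11.2 percentile of the vehicle list, against 5.75 for all vehicle peaks. The median width was 230 bp against 398 bp, and the median −log10 q, the caller's adjusted significance, was 3.90 against 15.8. The share of vehicle peaks that were vehicle-only was taken in 10 classes of near-equal size ranked on fold. It fell from 29.4% in class 1, the weakest (28.6 to 30.2), to 20.2%, 9.32%, 5.62% and 2.00% in classes 2 to 5, and was 0 in classes 9 and 10. Of the 8701 regions, 98 had a fold above the median of the vehicle list and 1 lay above its 75 percentile. The other lists had the same form, so a single-list peak was mostly a weak peak whichever list held it.

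**Figure D1:**
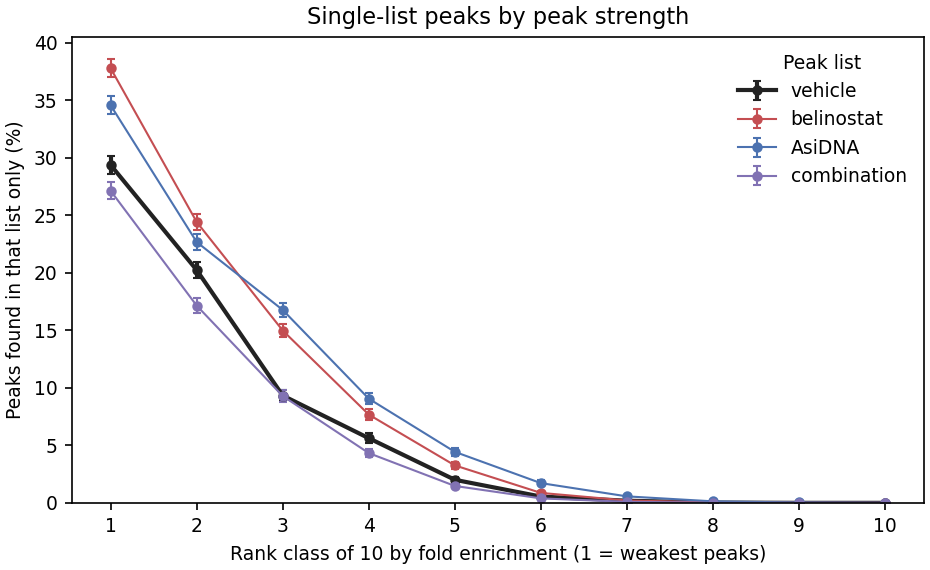
Share of the peaks of each list that overlapped no peak of another list (y axis, %) in 10 classes of near-equal size ranked on fold enrichment (x axis, 1 is the weakest), for the vehicle, belinostat, AsiDNA and combination lists, with Wilson 95% intervals that cover counting error only. The vehicle share falls from 29.4% in class 1 to 2.00% in class 5 and 0 in class 10, and the other lists fall likewise.

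The fold values gave a view of the read depth behind these peaks. Where a peak was measured against the genome-wide background, its fold was a whole multiple of a step that was 0.236 in the vehicle list, 0.232 in the belinostat list, 0.234 in the AsiDNA list and 0.231 in the combination list. If the caller added its default of 1 to the pile-up and to the background, these steps correspond to background pile-ups of 3.23, 3.31, 3.28 and 3.33 fragments, which differed little between the lists. On that reading, the 4049 vehicle-only regions whose fold lay on a step (46.5%, tolerance 5e-05) had a median of 14 fragments at the summit and a range of 10 to 35. The counting interval of 14 fragments is 7.65 to 23.5 (exact Poisson, 95%). The lowest pile-up on a step was 10 in the vehicle, AsiDNA and combination lists and 8 in the belinostat list. The median vehicle-only peak on a step thus stood a few fragments above the lowest such peak and within its own counting interval of it. For the vehicle-only regions off the steps no fragment count was obtained.

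Most vehicle-only regions lay within 10000 bp of a peak of another list, and so did most regions of the other single-list sets. The median gap to the nearest peak of any treated list was 4100 bp (quartiles 1251 and 9318), with 21.3% (20.5 to 22.2) within 1000 bp and 76.9% (76.0 to 77.8) within 10000 bp. The medians to the nearest belinostat, AsiDNA and combination peak were 5896, 5629 and 6065 bp. For belinostat-only, AsiDNA-only and combination-only regions the median gap to a peak of any other list was 3370, 3892 and 3143 bp, with 82.6%, 77.3% and 83.4% within 10000 bp. The vehicle-only median was thus the largest of the single-list sets. The same share for positions over the whole genome was not taken. A gap above 100000 bp was found for 83 vehicle-only regions.

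At the boundary of the rule, 16 vehicle-only regions came within 10 bp of a peak of another list, with a median fold of 2.84, and 15 vehicle peaks were not members because they overlapped such a peak by at most 10 bp, with a median fold of 3.01. A gap of 0 bp, where a member touched a peak of another list without a shared base, was found for 4 regions. Among them were chr11:124799041-124799814 in MSANTD2 (fold 3.42), chr12:13435754-13435974 between genes (2.40) and chr19:11914974-11915175 in ZNF69, a zinc finger gene (2.51). The peaks excluded by the smallest overlap were chr3:160053220-160053411, which shared 1 bp (3.85), and chr15:32030150-32030355 and chr6:170660762-170661193, which shared 2 bp each (4.02 and 2.84).

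The strongest vehicle-only regions were single peaks in or near genes of varied function. The highest fold, 8.51 (the 77.3 percentile of the vehicle list), was at chr9:6113379-6113649, 97.9 kb from an end of RANBP6 and 5978 bp from the nearest treated-list peak. The region at chr1:106613137-106613383 (fold 7.95) lay 443 kb from PRMT6, an arginine methyltransferase gene. A peak in GRIA4, an AMPA-type glutamate receptor subunit (chr11:105719466-105719841, fold 7.57), stood 109242 bp from any treated-list peak, the most isolated of the 10 strongest. NREP held a peak of fold 7.58 (chr5:111772541-111772884), RNLS, which encodes renalase, one of 7.14 (chr10:88557722-88557942), and PROM1, which encodes the surface antigen CD133, one of 7.09 (chr4:16045822-16046068). MYH15, a myosin heavy chain gene, held a peak of fold 7.08 (chr3:108455209-108455607) and PLPP4, a phospholipid phosphatase gene, one of 6.86 (chr10:120588406-120588610). Another, chr6:142039014-142039247 (7.57), lay in the long non-coding gene LOC107986654. A treated-list peak lay between 1264 and 1588 bp away from the region near PRMT6 and from those in NREP, MYH15 and PLPP4.

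Few vehicle-only summits lay at gene ends. A summit within 1000 bp of either end of a protein-coding gene was found for 302 regions, 3.47% (3.11 to 3.88), against 8.32% of all regions and 12.6% of regions open in all 4 lists. Another 3536 (40.6%) lay in gene bodies and 4863 (55.9%) between protein-coding genes, of which 968 (19.9%) lay in long non-coding genes. The gene-end share of the other single-list sets was 3.72% (belinostat), 3.98% (AsiDNA) and 3.12% (combination), within or close to the vehicle-only interval. The share between genes was 51.9% to 53.3% in these sets, below the vehicle-only interval of 54.8 to 56.9. When a peak counted as shared if summits lay within 250 bp, the vehicle-only gene-end share was 7.01% and the number of genes with such a region was 837, so the gene-end values depend on how sharing is defined.

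Distances to genes separated the sets more. The median distance from a vehicle-only summit to the nearest protein-coding gene end was 43.9 kb, against 28.9 kb for belinostat-only, 39.3 kb for AsiDNA-only and 33.9 kb for combination-only regions and 24.9 kb for regions of all 4 lists. A window of 1 Mb around a vehicle-only summit held a mean of 7.72 protein-coding genes, against 9.89, 8.04 and 8.88 for the other single-list sets and 9.99 for regions of all 4 lists.

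Part of the vehicle-only set lay in gene-free stretches, defined here as more than 2 Mb without an annotated gene of any type. There were 27 such stretches, 179.875 Mb in all, and they lie at or next to the centromeres and on the short arms of acrocentric chromosomes, where the hg38 assembly holds satellite repeats, modelled centromere sequence and gaps. Reads in repeats are hard to place, and the sources used here do not say whether the authors masked such sequence. The stretches held 819 vehicle-only regions, 9.41% of the set (8.82 to 10.0), against 1.73% of belinostat-only (1.52 to 1.98), 6.09% of AsiDNA-only (5.68 to 6.52) and 4.75% of combination-only regions (4.31 to 5.24). The share was 1.55% for regions of all 4 lists and 2.93% for all regions. Read the other way, vehicle-only regions made up 15.2% of the 5378 regions inside the stretches (14.3 to 16.2) and 4.42% of the 178281 outside. The stretches held 759 AsiDNA-only regions, close to the 819 vehicle-only ones, beside 383 combination-only and 214 belinostat-only regions. The share differed between stretches, and on chromosome 1 vehicle-only regions were 4.18% of the 1147 regions of the stretch.

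**Figure D2:**
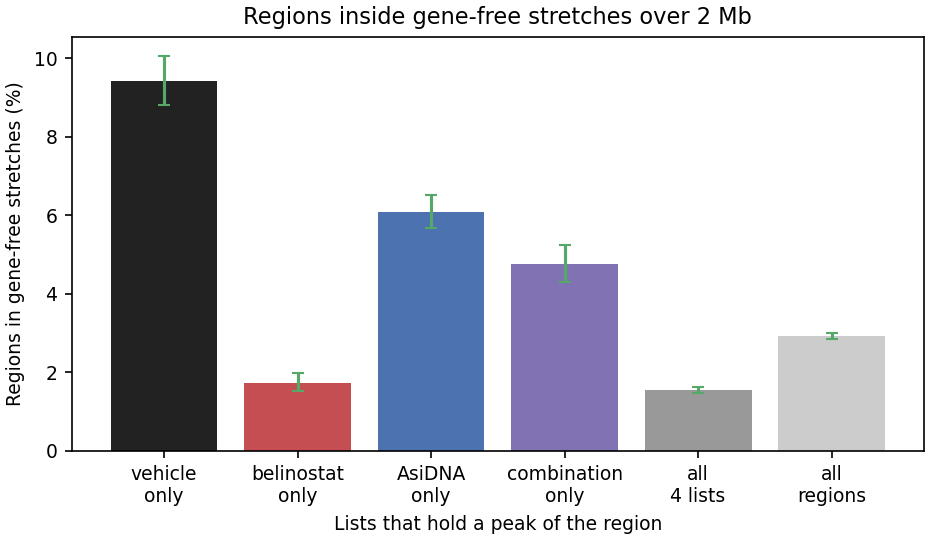
Share of regions whose summit lay in a gene-free stretch longer than 2 Mb (y axis, %) for regions of 1 list only, of all 4 lists and for all regions (bars), with Wilson 95% intervals that cover counting error only. The vehicle-only bar stands at 9.41% and the belinostat-only bar at 1.73%, with AsiDNA only at 6.09% and combination only at 4.75% between them.

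The vehicle-only peaks inside the stretches were as weak as those outside, with median folds of 3.31 and 3.41, and were slightly wider, 262 against 229 bp. The highest fold inside was 5.91. Before any comparison of lists, 2.86% of vehicle peaks, 1.81% of belinostat peaks, 2.63% of AsiDNA peaks and 2.17% of combination peaks lay in the stretches, so the 2 lists made with belinostat held fewer peaks there. The stretch on chromosome 9 held 124 vehicle-only regions, those on chromosomes 2 and 20 held 84 each, that on chromosome 13 held 69 and that on chromosome 11 held 63. On chromosome 11 the vehicle-only regions were 37.7% of the 167 regions of the stretch. The order of the 4 single-list shares, vehicle, AsiDNA, combination, belinostat, was the same with −log10 q of at least 5 in every list (8.24%, 4.40%, 3.29% and 1.40%), with lists of equal length (10.9%, 4.90%, 3.61% and 1.44%) and with peaks merged up to 500 bp apart (8.76%, 5.59%, 4.20% and 1.37%). Among regions whose single-list peak had a −log10 q of at least 5, with no deposited peak of another list, the shares were lower but in the same order, at 5.45% (4.69 to 6.32), 3.16%, 2.40% and 0.779%.

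On chromosome 9 the vehicle-only regions of the stretch were packed into chr9:43264793-45502313, a cluster of 2.24 Mb with 116 vehicle-only, 154 AsiDNA-only, 57 combination-only and 37 belinostat-only regions and 84 regions of all 4 lists. Vehicle-only and AsiDNA-only regions were interleaved along its length.

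**Figure D3:**
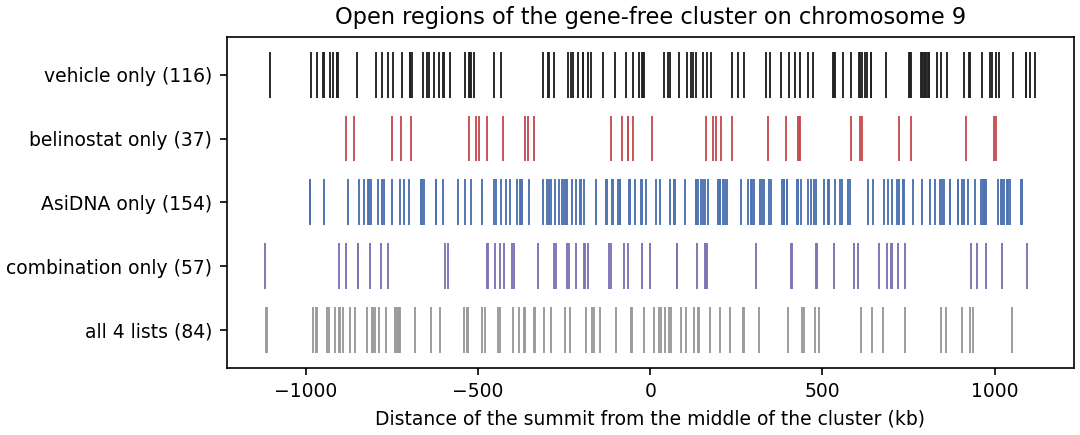
Position of open regions in the gene-free cluster on chromosome 9, as the distance of each summit from the middle of the cluster (x axis, kb), with 1 row for each set and 1 line for each region, the number of regions in brackets. The 116 vehicle-only and 154 AsiDNA-only regions run over the whole cluster, and the 37 belinostat-only regions are sparser.

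Outside the stretches the vehicle-only set held 7882 regions and its distance from genes was smaller, with a median of 35.4 kb to a gene end and a mean of 8.51 genes per 1 Mb. Of these regions 3.83% lay at gene ends, 44.9% in gene bodies and 51.3% between genes (50.2 to 52.4). The share between genes outside the stretches was 52.1% of belinostat-only, 48.8% of AsiDNA-only and 51.0% of combination-only regions, so vehicle-only regions no longer stood above the belinostat-only and combination-only sets. The distance remained above the 28.0 kb of belinostat-only regions treated the same way and the 30.8 kb of combination-only regions, and was next to the 34.6 kb of AsiDNA-only regions. The mean gene density of AsiDNA-only regions outside the stretches was 8.56, next to the vehicle-only 8.51.

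By chromosome, the vehicle-only share of regions was lowest on chromosomes 22 (3.26%, 2.68 to 3.95), X (3.36%), 17 (3.66%), 19 (3.83%) and 4 (3.93%) and highest on chromosomes 13 (6.54%, 5.92 to 7.21), 7 (5.59%), 2 (5.52%), 20 (5.49%) and 8 (5.46%). The lowest and the highest chromosomes both included gene-poor ones, such as 4 and 13. Without the gene-free stretches the share of chromosome 20 was 4.30% and that of chromosome 9 was 3.99% in place of 5.04%, while chromosome 13 was still highest at 6.00% and chromosome 7 followed at 5.44%.

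**Figure D4:**
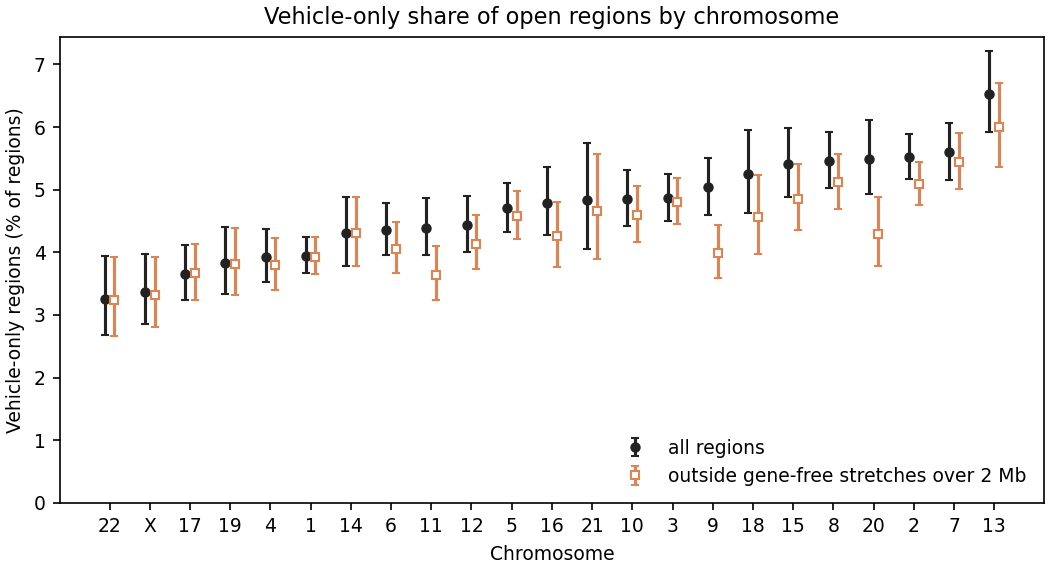
Vehicle-only regions as a share of all open regions of each chromosome (y axis, %), ordered by the share (x axis), over all regions (filled circles) and outside gene-free stretches longer than 2 Mb (open squares), with Wilson 95% intervals that cover counting error only. The share runs from 3.26% on chromosome 22 to 6.54% on chromosome 13, and the squares fall clearly below the circles on chromosomes 9, 11 and 20.

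Vehicle-only regions lay near each other in 58.2% of cases, with another summit of the set within 100 kb. The same share was 71.2% of belinostat-only, 67.2% of AsiDNA-only and 57.2% of combination-only regions, and it rises with the size of a set, since these sets held 12343, 12461 and 8055 regions. Runs of vehicle-only regions with gaps of at most 50 kb were mostly short. Alone stood 5369 regions (61.7%), and 333 runs of 3 or more held 1430 regions (16.4%).

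Of 19 runs with at least 10 vehicle-only regions, 18 lay in gene-free stretches and these 19 runs held 294 regions. The longest was chr9:45133576-45502313 with 27, where 104 regions of any pattern included 29 AsiDNA-only, 4 belinostat-only and 5 combination-only ones. The following were chr20:26860126-27323636 with 24, chr9:43585932-43870316 with 21, chr9:44070898-44366529 with 20 and chr15:18424434-18737071 with 19. The remaining long run, chr3:90803777-91090488 with 15 regions, held no protein-coding gene and lay 1322 kb beyond EPHA3, also beside a centromere. It held 8 AsiDNA-only, 2 combination-only and 0 belinostat-only regions.

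Away from centromeres the longest runs were short and local. On chr3:198050175-198197152, between LMLN and the end of the chromosome, 7 of 25 regions were vehicle-only. On chr1:117240505-117342981, between VTCN1, an immune checkpoint ligand gene, and MAN1A2, a Golgi mannosidase gene, 6 of 14 regions were vehicle-only, with folds of 2.56 to 3.12. MBNL1, which encodes a splicing regulator, held a run of 6 among 31 regions (chr3:152193526-152357985), 15 of them open in all 4 lists. At SEMG2, a semenogelin gene, and SLPI, a secreted protease inhibitor gene (chr20:45210833-45253717), 5 of 8 regions were vehicle-only, with folds of 2.29 to 3.68. No region of that run belonged to another single list and 1 was open in all 4. These runs were picked for their counts, and no test was made of them.

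In windows of 1 Mb, the median number of vehicle-only regions was 2, and 465 of 2829 windows with a region (16.4%) held none. The windows with most were chr9:44000001-45000000 (50 of 375 regions), chr2:92000001-93000000 (47 of 218), chr20:27000001-28000000 (41 of 186), chr13:17000001-18000000 (40 of 382) and chr2:93000001-94000000 (35 of 100). Each of these touched a gene-free stretch. Of 75 windows with at least 10 vehicle-only regions, 30 touched a stretch. The other 45 included 11 on chromosome 7 and 6 on chromosome 10, and on chromosome 7 the highest was chr7:150000001-151000000 with 18 of 103 regions, beside 10 belinostat-only, 12 AsiDNA-only and 3 combination-only ones. That window holds the GIMAP genes, which encode GTPases of immune cells.

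From 120 Mb to the end of chromosome 7, vehicle-only regions were 7.45% of 3731 regions (6.65 to 8.34), against 4.19% of 5996 regions (3.71 to 4.72) on the rest of that chromosome outside the stretches. All the other single-list sets were also more frequent there, belinostat-only at 9.01% against 6.59%, AsiDNA-only at 8.93% against 6.22% and combination-only at 6.08% against 3.84%. The 120 Mb position was chosen after these counts were seen.

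Protein-coding genes that hosted a vehicle-only summit in the body numbered 2757 of 19821, or 13.9% (13.4 to 14.4). Hosts were long genes, with a median span of 108 kb against 24.5 kb over all protein-coding genes, and hosts of belinostat-only, AsiDNA-only and combination-only regions were likewise long (86.3, 101 and 102 kb). The share of genes that were hosts rose with length from 1.71% of genes under 10 kb to 64.2% of genes over 300 kb. The share of the regions in genes that were vehicle-only moved far less, from 3.68% in genes under 10 kb to 4.80% in genes over 300 kb. At least 2 vehicle-only regions were held by 656 genes and at least 5 by 44.

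The gene with most vehicle-only regions was PRKG1, which encodes a cGMP-dependent protein kinase, with 18 among 172 regions (10.5%, 6.72 to 15.9) at folds of 2.47 to 5.03. It also held 20 AsiDNA-only, 12 belinostat-only and 10 combination-only regions. RANBP2, a nucleoporin gene with an annotated span of 1123 kb in the table used, held 10 among 85, spread over 981 kb. A summit was counted for every gene whose span held it, so regions counted for RANBP2 may also lie in other genes. KALRN, a guanine nucleotide exchange factor gene of dendritic spines, held 9 among 71. A count of 7 was reached by 12 genes. Those with the highest share of their regions were PTPRT, a receptor tyrosine phosphatase (of 31 regions), KMT2C, a histone H3 lysine methyltransferase (of 32), CAMK1D, a calcium/calmodulin-dependent kinase (of 46), CADPS2, a factor of dense-core vesicle release (of 48), FGF14, a modulator of sodium channels (of 62), KLF12, a transcription factor (of 72), and RORA, a nuclear receptor (of 78). Counts in CADPS2 were higher for AsiDNA-only regions (11) and 0 for combination-only regions.

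Among genes with at least 5 vehicle-only regions, the share of a gene's regions that were vehicle-only was highest in PHACTR3, a phosphatase and actin regulator gene (5 of 15, 33.3%), MGAM2, of the maltase-glucoamylase family (5 of 19, 26.3%), NTNG1, an axon guidance gene (6 of 26, 23.1%), PTPRT (22.6%) and KMT2C (21.9%). The intervals were wide, 15.2 to 58.3 for PHACTR3 and 11.0 to 38.8 for KMT2C, against a share of 4.28% over all regions in genes. PHACTR3 held 1 AsiDNA-only region and none of the other treated single-list sets. Both PTPRT and PHACTR3 lie on the long arm of chromosome 20, and MGAM2 and KMT2C on the distal part of chromosome 7 described before. These genes were ranked on the counts themselves.

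**Figure D5:**
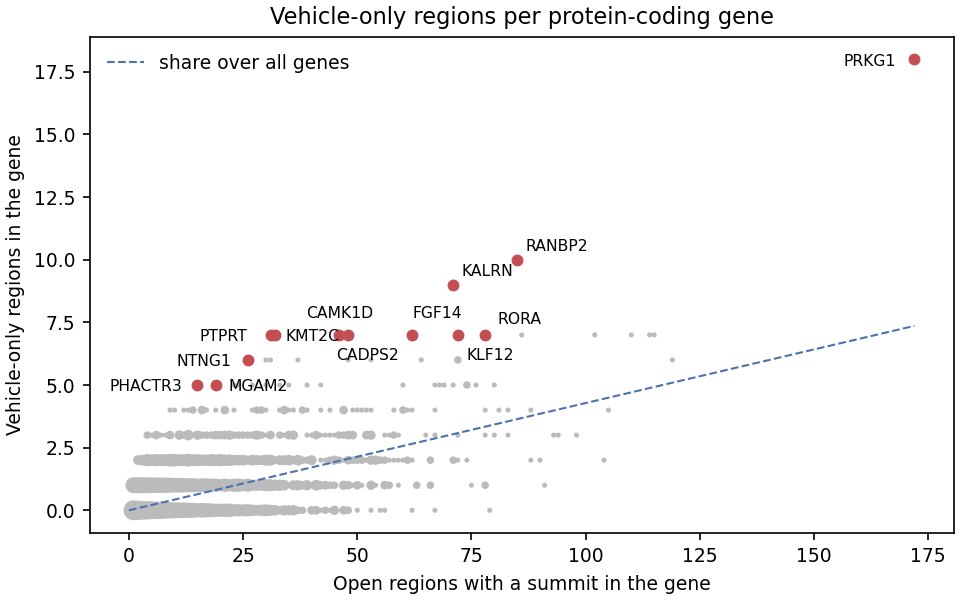
Vehicle-only regions (y axis) against all open regions (x axis) with a summit in each protein-coding gene, grey points sized by the logarithm of the number of genes at that pair of counts, with the genes named in the text in red and the share over all regions in genes, 4.28%, as a dashed line. PRKG1 is farthest right with 172 regions and 18 vehicle-only ones, and PHACTR3 reaches 5 with 15 regions.

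The 302 gene-end regions lay at 319 protein-coding genes, 1.61% of the 19821, against 472 genes for belinostat-only, 536 for AsiDNA-only and 272 for combination-only regions and 12218 for regions of all 4 lists. Where the strand was known from the promoter table, 156 genes were met at the 5′ end and 89 at the 3′ end, and for 74 the strand was not known. Of the 319 genes, 201 also had a region of another pattern at an end, so for 118 the vehicle-only region was the one called opening there.

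The strongest gene-end regions were mostly at 3′ ends. MTERF2, a mitochondrial transcription termination factor family gene, had a region of fold 5.91 lying 740 bp from its 3′ end (chr12:106976412-106976661), with a treated-list peak 579 bp away. RAD1, a subunit of the checkpoint clamp that senses DNA damage, had one of 5.44 (chr5:34905619-34905963), and ASB7, a ubiquitin ligase adaptor gene, one of 5.44 (chr15:100651330-100651559). MYL12BP2 (5.68), ATP13A5, a P-type ATPase gene (5.20), PTPRF, a receptor tyrosine phosphatase gene (4.87), RBM18, an RNA-binding protein gene (4.73), and OR4E1, an olfactory receptor gene (4.49), were also met at the 3′ end. CIBAR1 had one of 4.49, at an end whose strand was not known.

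In 14 gene lists (383 genes), vehicle-only regions in the body or at an end are best read against all protein-coding genes, of which 2878 (14.5%) had one, and against the vehicle-only share of regions counted per gene, 3.93%. The count of genes follows gene length, as above. Lists of neuronal membrane genes had shares above that value. In glutamate and GABA receptor genes 15 of 37 genes had a vehicle-only region and 7.88% of 368 regions were vehicle-only (5.54 to 11.1), led by GRIA4 (fold 7.57, 1 of 4 regions), GABRA3 (4.73) and GRIA3 (4.49, 3 of 13). In synaptic adhesion genes it was 16 of 36 genes and 6.64% of 587 regions (4.90 to 8.95), led by DLG2, a postsynaptic scaffold (6.15), NRXN3, a presynaptic neurexin with 5 among 70 regions (5.44), and CSMD3 (5.44).

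Voltage-gated channel genes had one in 18 of 32, at 5.74% of 679 regions (4.23 to 7.76), with KCND2 (5.91), CACNA2D1 (5.44) and KCNMA1 (4.97) leading. Axon guidance genes had one in 19 of 36, at 5.70% of 737 regions (4.24 to 7.61), with PLXNA2 (4.47), the slit receptor ROBO1 (4.45) and the ligand SLIT1 (4.41). Median spans in these 4 lists were 260, 861, 372 and 270 kb. The share over all genes longer than 300 kb was 4.80%, but it counts summits in gene bodies only, whereas the list shares include gene ends. That value lay below the intervals of the receptor and synaptic adhesion lists, narrowly for synaptic adhesion (lower bound 4.90). It lay within those of the channel and axon guidance lists. Genes of common fragile sites are the longest of the lists, at a median of 1370 kb, and had vehicle-only regions in 9 of 15 at 3.49% of 544 regions (2.25 to 5.39), among them PARD3B (5.91) and FHIT (4.73).

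Glial and glioma identity genes had vehicle-only regions in 7 of 18, at 6.28% of 191 regions (3.63 to 10.7). They included NFIB, a transcription factor of glial development (6.62), SLC1A2, the main astrocytic glutamate transporter (4.67), and PDGFRA, a growth factor receptor of glial progenitors (4.26). Genes of histone deacetylases, the targets of belinostat, and their partners had them in 7 of 21, at 4.20% of 238 regions (2.30 to 7.56), with the co-repressor RCOR1 (5.65) and the class IIa deacetylases HDAC9 (4.26) and HDAC4 (3.77). Genes of DNA break repair, the process that AsiDNA targets, had them in 4 of 32, at 2.55% of 274 regions (1.24 to 5.18), with XRCC4 (4.26) and RAD51B (4.26), which act in end joining and in homologous recombination, and XRCC5 (3.31), a subunit of the Ku end-binding complex.

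In the remaining lists the interval of the share of regions included the 3.93% over all genes. By count of genes, the cadherin and actin lists were above the 14.5% over all genes, with lower bounds of 17.3% and 19.2%. Their genes are long, with median spans of 140 and 90.5 kb against 24.5 kb over all genes, and the count follows length. Hosts in the body were 15.6% of all genes of 30 to 100 kb and 37.6% of those of 100 to 300 kb. Cadherins had 9 of 29 genes and 3.94% of 432 regions, with CDH13 holding 7 (highest fold 4.97), CDH12 (4.49) and CDH22 (3.97). Actin, focal adhesion and matrix genes had 10 of 30 and 2.86% of 454 regions, with the matrix glycoprotein TNC (5.16), LAMA4 (3.75) and PTK2, focal adhesion kinase (3.64). WNT and TGF-beta genes had 7 of 32 and 2.88% of 313 regions, with SMAD7 (3.84), TGFBR3 (3.36) and LRP5 (3.34). Targets of p53 had 3 of 20 genes and 3.95% of 76 regions (ZMAT3 at 3.78, FDXR at 2.97 and POLH at 2.67). Interferon-induced genes had 1 of 25, OAS2 (3.36), at 1.64% of 61 regions, and keratins 1 of 20, KRT23 (3.48), at 3.33% of 30 regions. All these lists are descriptions of counts, with no test of a list.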

How the data were processed

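NicE-seq was run on 16 U87 samples, 4 per group, assigned by the treatment field of the labels. The submitters' processing notes name MACS2, Bowtie2, Trim Galore (0.5.0), Picard, SAMtools and deepTools, and the hg38 build. The sources used here do not give the role or options of each tool, any control input or masked sequence, or how libraries were pooled into 1 list per group. Each deposited list gives, per peak, a fold enrichment (a ratio over local background), a q-value on the −log10 scale, a score and a summit offset, all as the authors' caller wrote them. These values were used within a list. Depth is unknown apart from the steps of the fold values.

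Peaks on chromosomes 1 to 22 and X were merged at 1 bp of overlap, and each region took the summit of its strongest peak. Genes came from a GRCh38.p14 RefSeq table with 19821 protein-coding and 58419 genes of all types. Another 153 protein-coding genes given in scaffold coordinates were left out. A gene end was a window of 1000 bp around either end of the gene. Promoter and microRNA sequences came from RefSeq tables (GRCh38.p14). No genome sequence was used, so the sequences of the regions were not read. Positions are 1-based. Named were the 10 strongest regions and gene-end regions, the 10 genes with most regions and the 5 with the highest share, the 5 leading runs and windows, the 5 highest and lowest chromosomes, and up to 3 genes per list. A few of these are not reported here. Others were chosen after their values were seen, namely the runs and windows outside the stretches, further promoter genes, microRNAs and markers. The members and lists were chosen with earlier results of these data known. Shares have Wilson 95% intervals. Code was tested on simulated data. Python 3.11.15, numpy 2.4.6, pandas 2.3.3, scipy 1.17.1 and matplotlib 3.10.9 were used.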

Additional observations from a re-analysis of the deposited data

How the results depend on the processing

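No paired analysis was possible because each group has 1 peak list. Of 106 alternative values of 11 results, 52 stayed within their interval or within 1.5 times the count and 54 moved. These results are counts, shares, distances and densities of the vehicle-only set, so none had a direction that could reverse. The order of the single-list set sizes was not among them, and it changed with lists of equal length. Weak peaks, few fragments in the peaks whose fold lay on a step, and unknown depth per library limit every count. With −log10 q of at least 5 in every list there were 4685 vehicle-only regions, 1758 host genes, 179 genes with a gene-end region, 8.24% in gene-free stretches, 37.1% with a neighbour, and shares of 4.91% on chromosome 13 and 1.94% on chromosome 22. With a vehicle peak of −log10 q of at least 5 and no other peak, these were 3009, 1233, 90, 5.45%, 26.8%, 2.46% and 0.954%, with 2.69% at gene ends. Lists of equal length gave 10.9% in stretches, 62.9% with a neighbour, 8.43% and 4.23% on those chromosomes. Sharing defined by under 50% overlap gave 60.4% with a neighbour. Sharing defined by summits within 250 bp gave 7.01% at gene ends, 837 gene-end genes, 39.1 kb to a gene end, 8.08 genes per 1 Mb, 64.9% with a neighbour, and 7.94% and 4.93% on those chromosomes. Merging up to 500 bp apart gave 2.47% at gene ends, 194 gene-end genes, 8.76% in stretches and 54.2% with a neighbour. Requiring no other peak within 1000 bp gave 2.31%, 162, 8.30% and 51.6%, with 5.22% and 2.53% on those chromosomes. Windows of 500 and 2000 bp gave 1.32% and 6.80% at gene ends and 118 and 632 genes, density windows of 500 kb and 2 Mb gave 3.87 and 15.2 genes, and neighbour windows of 50 and 200 kb gave 38.3% and 77.3%. Chosen after the data were seen, leaving out the gene-free stretches gave 35.4 kb, 8.51 genes per 1 Mb and 54.3% with a neighbour, and stretches over 3 Mb held 6.72%. Thresholds and overlap rules change which regions are kept, windows and stretch lengths change the measure on the same regions, and other causes were not tested.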

Other observations

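The gene-free stretches were also unevenly shared among regions that vehicle held together with other lists. Of 1354 regions open in vehicle and the combination and in no other list, 13.5% lay in the stretches (11.8 to 15.4), the highest share of the 15 patterns of presence. Of 1634 regions open in vehicle and belinostat it was 7.89% (6.68 to 9.30), and of 9257 open in vehicle and AsiDNA it was 3.94% (3.57 to 4.36). The lowest share, 0.564% (0.441 to 0.720), was that of the 11179 regions open in belinostat and the combination. AsiDNA-only regions formed the longest run of any single-list set, with 112 regions at gaps of at most 50 kb, against 27 for vehicle-only, 12 for belinostat-only and 13 for combination-only regions.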
